A study of Bos taurus with 2 samples.

Results

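The genes described here build the outer barrier of stratified epithelium, and comprise the precursors of the cornified envelope, the enzymes that cross-link them, the desmosomes that hold the cells together, the enzymes of the barrier lipids and several regulators of keratinocyte differentiation. They were a list of 50 gene symbols grouped by function, drawn up with earlier results of these arrays known, so that counts over the list describe it and are not independent evidence of a direction. Probes were found for 31 of them, through the accession that each probe carries and RefSeq's gene symbols for the ARS-UCD2.0 assembly, among 9647 genes named in this way on the array. These 31 genes were read by 68 probes. LOR was matched through its present symbol LORICRIN, and SPRR1B through an entry that lists this name as a synonym. The other 19 genes (CALML3, FLG, FLG2, RPTN, SPRR3, CRNN, DSG2, DSG3, DSC2, DSP, PPL, EVPL, CASP14, ALOX12B, ALOXE3, ABCA12, ASPRV1, GRHL3 and TP63) were not analysed here.

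The study compared the muzzle of native Korean (HanWoo) cattle with light and with dark pigment, to find genes related to muzzle color. RNA came from the front part of the muzzle of 1 light-muzzle cow (labelled as yellow) and 1 dark-muzzle cow (labelled as black), both female, 30 months old and with no treatment named, and each RNA was hybridised to its own 1-color Agilent bovine array on a shared slide. With a single cow per group no test could be made. Every difference below is between 2 animals, without a replicate array, and its precision is limited by how few arrays there were. For some genes selected from these arrays the paper reports real-time RT-PCR on more cows, which was not analysed here.

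Keratinocytes move upward from the basal layer of the epidermis and, near the surface, lay down a shell of cross-linked protein beneath their membrane. Involucrin, loricrin and the small proline-rich proteins are the bricks of this cornified envelope, transglutaminases join them, and ceramides and other lipids are attached to the outside and fill the space between the cells. Desmosomes, in which desmogleins and desmocollins bridge neighboring cells and plakophilins, plakoglobin and desmoplakin tie them to keratin, keep the layer in one piece until the dead cells are shed. The bovine muzzle is hairless skin with a thick cornified layer and with serous glands beneath it.

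A level is given here as the log2 of a probe's processed signal minus the log2 of the 75th percentile of the array, so that a level of 0 is the brightness of that percentile. Levels were compared only between the cows for the same probe, gene or list of genes, and pairs of levels are given with the light muzzle first. The summed signal of a list adds the unlogged signals of its probes, so the brightest probes weigh most. A ratio is the dark-muzzle level less the light-muzzle level, also on the log2 scale, and the ratio of a gene is the mean over its probes. All 68 probes were well above background in both cows, so no member entered through a limit of detection, and no noncontrol spot was saturated. The scanner software attaches an error to each signal, which gave the ratio of a single probe an error between 0.20 and 0.36 with a median of 0.20. This error covers the reading of the arrays and not the difference between animals. Different probes of the same gene had a median SD of the ratio of 0.26 over the 25 members with more than 1 probe, against 0.17 over all such genes of the array.

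Close to equal numbers of the barrier genes were higher in the dark muzzle by 2-fold or more and within 2-fold. Of the 31 genes, 14 were higher in the dark muzzle by 2-fold or more, 1 was lower by 2-fold or more and 16 lay within 2-fold. Over all 8914 genes with a ratio, 9.86% were higher by 2-fold or more and 6.47% at least 2-fold lower. The median log2 ratio was 0.96 over the 31 genes and 0.065 over all genes. A ratio above 0 was found for 29 of the 31 genes, or 93.5%, and for 55.2% of all genes, a count by sign that includes genes near 0 such as ECM1 (0.083). In bulk tissue, more cells of a type and more RNA per cell cannot be told apart, and this holds for each difference below.

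**Figure D1:**
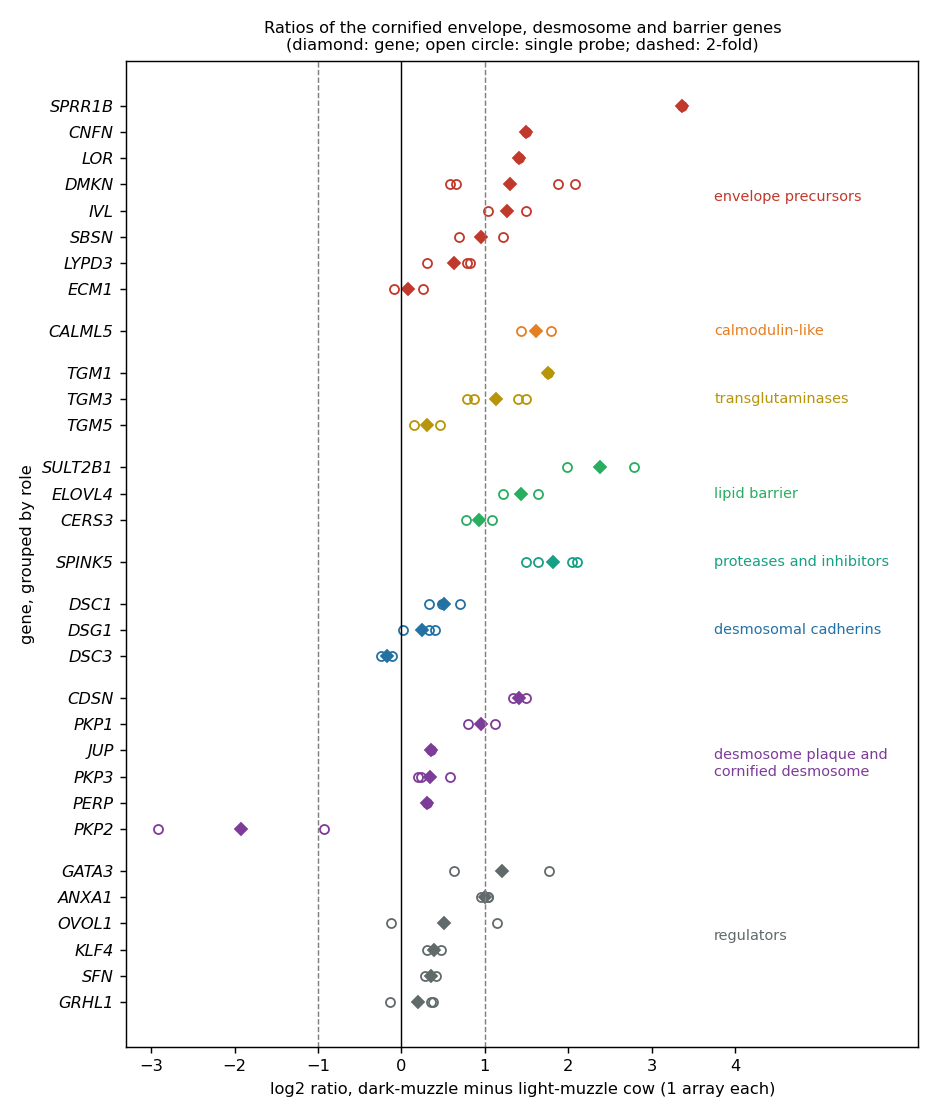
The log2 ratio of each gene, dark-muzzle minus light-muzzle cow, on the horizontal axis, with genes grouped by role on the vertical axis. Filled diamonds are genes, open circles their single probes and dashed lines a 2-fold difference; 14 diamonds lie beyond the upper line and only that of PKP2, at -1.93, beyond the lower one.

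The probes of a gene mostly pointed the same way. Of the 25 members with more than 1 probe, 20 had all probes above 0, DSC3 and PKP2 had all probes below 0, and the probes of ECM1, GRHL1 and OVOL1 went both ways. On the whole array, 4899 genes had more than 1 probe and every probe well above background in both cows. All probes were above 0 for 41.3% of them. Every probe was higher by 2-fold or more for 6 of the 25 members (IVL, CALML5, CDSN, SULT2B1, ELOVL4 and SPINK5), or 24.0%, against 6.35% of the 4899 genes. Every probe was lower by 2-fold or more for 0 of the 25, against 2.88% of the 4899 genes. Counted by probe, 61 of the 68 were higher in the dark muzzle, 29 of them by at least 2-fold, and 1 was lower by 2-fold or more. The same counts over all probes of the array were not made. Probes of the same gene are not separate observations, so these counts only describe the list.

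Among the envelope precursors and other secreted or envelope-associated proteins, 5 of 8 measured genes were higher in the dark muzzle by 2-fold or more, with a median log2 ratio of 1.28. SPRR1B, a small proline-rich protein that is cross-linked into the envelope, had the highest ratio of the whole list. The log2 level of its single probe was 3.56 in the light muzzle and 6.93 in the dark muzzle, a ratio of 3.37 or 10.3-fold, which exceeded that of 99.2% of all genes. Small proline-rich genes are similar in sequence, and whether the probe also reads a relative was not tested. LOR, which encodes loricrin, the glycine-rich main protein of the envelope in skin, had levels of 5.58 and 6.99 in the same order, a ratio of 1.41 or 2.66-fold from 1 probe.

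IVL encodes involucrin, an early scaffold of the envelope. Its probes read log2 levels of 4.28 and 4.35 in the light muzzle, against 5.32 and 5.84 in the dark one, which gave ratios of 1.04 and 1.49 and a mean of 1.26 (2.40-fold, SD between probes 0.32). CNFN, or cornifelin, a small envelope protein, had levels of -0.30 and 1.19, a ratio of 1.49 or 2.81-fold from 1 probe. On the ARS-UCD2.0 assembly LOR, SPRR1B and IVL lie in a stretch of 9 protein-coding genes, part of the epidermal differentiation complex. The other genes of this stretch gave no ratio here.

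The 4 probes of DMKN, which encodes dermokine, a protein secreted by keratinocytes, fell into pairs. A first pair had log2 levels of 0.096 and 1.60 in the light muzzle, against 2.17 and 3.47 in the dark one, with ratios of 2.08 and 1.87. The other pair had levels of 7.02 and 5.99 in the light muzzle, against 7.67 and 6.58 in the dark one, with ratios of 0.65 and 0.58. The 4 carried the same accession, and their position along the transcript is not given in the sources used here. The mean ratio of 1.30 (SD between probes 0.79) is thus at least 2-fold by 2 of the 4 probes. SBSN, or suprabasin, a secreted protein of the suprabasal layers, just missed 2-fold, its probes at 0.69 and 1.22 averaging 0.96. LYPD3, a membrane-anchored protein of the upper layers, had a ratio of 0.63, and ECM1, an extracellular matrix protein of skin, one of 0.083 from probes at -0.087 and 0.25.

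CALML5 encodes a calmodulin-like skin protein that binds calcium in differentiating keratinocytes. It is 1 of the genes that the study selected from these arrays, so its ratio is not independent evidence of a direction. The paper also reports higher CALML5 expression in dark-muzzle cows by real-time RT-PCR on more animals, which was not analysed here. On the arrays, 1 of the CALML5 probes read log2 levels of 5.11 in the light muzzle, against 6.54 in the dark one, a ratio of 1.43. The other read 1.75 and 3.54, a ratio of 1.79. Both were higher in the dark muzzle, by 2.69-fold and 3.47-fold.

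Of the transglutaminases, which form the cross-links of the envelope, TGM1 and TGM3 were higher in the dark muzzle by 2-fold or more and TGM5 was not. TGM1, the membrane-bound enzyme, read log2 levels of -2.87 and -1.11, a ratio of 1.76 or 3.39-fold from 1 probe. TGM3, an enzyme of the upper epidermis and the hair follicle, had 4 probes with ratios between 0.79 and 1.499 and a mean of 1.14. The brightest of them, with levels of 4.76 and 5.55, gave the lowest ratio and did not reach 2-fold. TGM5 had ratios of 0.46 and 0.15 and a mean of 0.30 (1.23-fold), of the order of the error of a single probe.

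**Figure D2:**
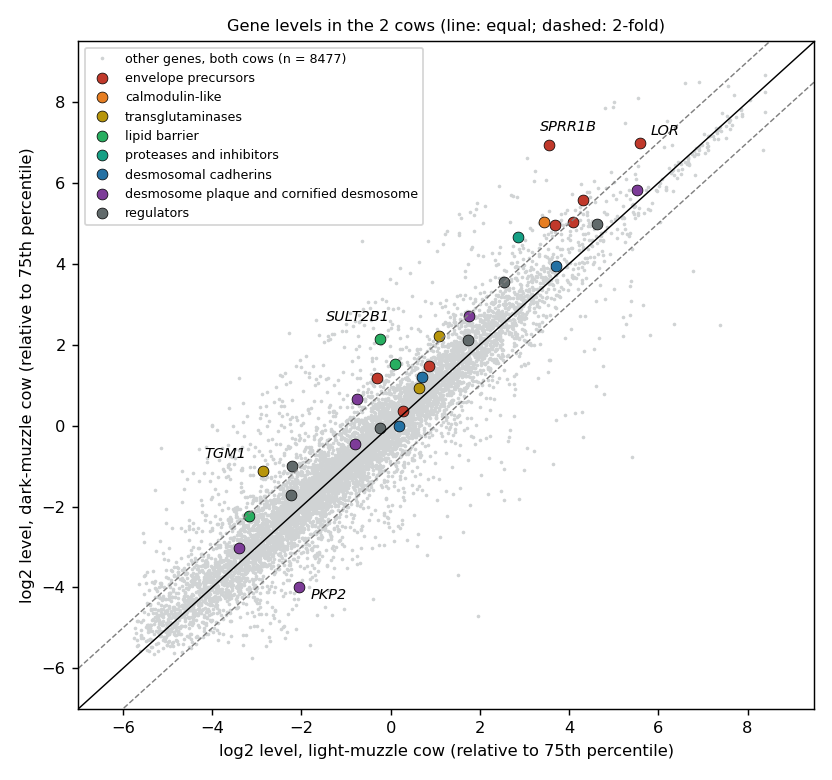
Log2 level of each gene relative to the 75th percentile of the array, in the light muzzle on the horizontal axis and in the dark muzzle on the vertical axis; colored points are the 31 barrier genes by role, grey points the other genes measured in both cows, the solid line marks equal levels and the dashed lines a 2-fold difference. SPRR1B (3.56 and 6.93) lies farthest above the line among the colored points, and PKP2 (-2.05 and -3.98) farthest below it.

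The 3 measured genes of the lipid barrier were higher in the dark muzzle, 2 of them by at least 2-fold. SULT2B1, which sulfates cholesterol in the epidermis, had the second-highest ratio of the list. Its probes read log2 levels of 1.26 and -1.74 in the light muzzle, against 3.24 and 1.05 in the dark one, with ratios of 1.98 and 2.79 and a mean of 2.38 (5.22-fold, SD between probes 0.57). ELOVL4, which makes the very long fatty acids of barrier ceramides, had levels of 1.15 and -0.97 in the light muzzle, against 2.37 and 0.68 in the dark one, with ratios of 1.22 and 1.64 and a mean of 1.43 (2.69-fold). CERS3, the ceramide synthase that uses such fatty acids, had probes at 1.08 and 0.77 that averaged 0.92, and the first of these was dim, with levels of -5.01 and -3.93.

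Of the 3 members grouped as proteases and inhibitors, only SPINK5 was measured. Further proteases and inhibitors, kallikreins among them, were measured in the second list described below. SPINK5 encodes LEKTI, which restrains the kallikreins that cut desmosomes in the cornified layer. Its 4 probes read log2 levels between 1.85 and 4.15 in the light muzzle and between 3.96 and 5.64 in the dark muzzle. All were higher in the dark muzzle, with ratios of 1.49, 1.64, 2.05 and 2.10 and a mean of 1.82 (3.53-fold, SD between probes 0.30).

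The desmosome genes were closer to equal than the rest of the list. Of 9 measured genes, 1 was higher by 2-fold or more, 1 at least 2-fold lower and 7 within 2-fold, with a median log2 ratio of 0.34. That is 11.1% higher and 11.1% lower, near the 9.86% and 6.47% over all genes. Of the 22 members outside the desmosome, 13 (59.1%) were higher by 2-fold or more and 0 at least 2-fold lower, with a median of 1.17. The regulators among these 22 had a lower median, 0.45. These groups of genes share the same 2 arrays, and the difference between them was not tested.

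Of the desmosomal cadherins, DSG1 (desmoglein 1), the main desmoglein of the upper epidermis, had probes with log2 levels of 6.68, -0.26 and 4.69 in the light muzzle, against 7.08, -0.24 and 5.02 in the dark one. Its ratios of 0.40, 0.022 and 0.33 averaged 0.25 (1.19-fold). DSC1, the desmocollin of the same layers, had ratios of 0.33, 0.70 and 0.49 and a mean of 0.50. DSC3, a desmocollin of the basal and lower layers, had ratios of -0.24 and -0.12 and a mean of -0.18. DSG1, DSC1 and DSC3 lie within a stretch of 4 protein-coding genes on ARS-UCD2.0, and none reached 2-fold in either direction.

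CDSN was the desmosome gene higher in the dark muzzle by 2-fold or more. It encodes corneodesmosin, which is added to desmosomes as cells cornify. Its probes read log2 levels of 2.16 and -3.68 in the light muzzle, against 3.65 and -2.35 in the dark one, with ratios of 1.49 and 1.33 and a mean of 1.41 (2.66-fold, SD between probes 0.11). Among the plaque proteins, PKP1, the plakophilin of the suprabasal epidermis, had levels of 3.59 and -0.10 in the light muzzle, against 4.39 and 1.02 in the dark one, and its mean ratio of 0.96 fell just short of 2-fold. PKP3 (0.34), the plakoglobin gene JUP (0.36) and PERP (0.30) were each higher in the dark muzzle by less than the 2-fold threshold, at 1.26-fold, 1.28-fold and 1.23-fold. PERP is a membrane protein of desmosomes and a target of p63. JUP and PERP had 1 probe each, and their ratios were of the order of the error of a single probe.

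PKP2 was the member lower in the dark muzzle by 2-fold or more. Plakophilin 2 is the plakophilin of simple and glandular epithelia and of heart muscle, and is sparse in the upper epidermis. Log2 levels of its brighter probe were -0.72 in the light muzzle and -3.64 in the dark muzzle, a ratio of -2.92 or 7.58-fold lower in the dark one. The dimmer probe read -3.39 and -4.31, a ratio of -0.93, short of 2-fold. The mean of -1.93 thus came with an SD between probes of 1.41, the largest of the list. On the same arrays 4 markers of simple and glandular epithelium were lower in the dark muzzle, from KRT7 (-3.63), KRT8 (-2.39) and EPCAM (-1.45) to KRT19 (-0.62). Their summed signal was 169 and 83.2 in units of the 75th percentile. The 4 probes of KRT8 ranged from -3.25 to -0.18, with an SD of 1.48. The part of gland tissue in the ratio of PKP2 was not tested.

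Of the 6 measured regulators, GATA3 and ANXA1 were higher in the dark muzzle by 2-fold or more, with a median log2 ratio of 0.45 for the group. GATA3, a transcription factor of the epidermis that is also made by T cells and luminal epithelia, had log2 levels of -0.28 and -4.14 in the light muzzle, against 1.49 and -3.51 in the dark one. Its ratios of 1.77 and 0.63 averaged 1.20, with an SD between probes of 0.80. ANXA1, the calcium-dependent annexin A1 that is found in the envelope, lay at the threshold. Its probes read log2 levels of 4.32, -0.028 and 3.31 in the light muzzle, against 5.36, 0.92 and 4.34 in the dark one. The ratios of 1.04, 0.95 and 1.03 averaged 1.01 (2.01-fold), which fell below 2-fold under quantile and loess normalization, the 50th percentile shift and no shift.

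The other regulators were within 2-fold. OVOL1, a zinc finger factor that drives exit from the cell cycle, had a bright probe at 1.15 and a dim one at -0.12, whose levels of -5.22 and -5.34 in the light and dark muzzle were near those of the dimmest detected probes there, -5.78 and -5.81. KLF4, a factor required for the barrier, had ratios of 0.31 and 0.48, and SFN (14-3-3 sigma) ratios of 0.28 and 0.42. GRHL1, a grainyhead-like factor that acts on desmosomal cadherin genes, had probes at -0.13, 0.35 and 0.37 and a mean of 0.20.

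A second list of 63 genes of cornification, shedding, barrier lipids and their control, none of them among the members, gave a more mixed picture. Of its 33 measured genes, 12 were higher in the dark muzzle by 2-fold or more, 4 at least 2-fold lower and 17 within 2-fold. That is 36.4% higher and 12.1% lower, against 9.86% and 6.47% over all genes, with a median log2 ratio of 0.46. The largest ratios were those of HOPX (2.55), a homeodomain protein of differentiating keratinocytes, SDR9C7 (2.33), an enzyme of bound ceramides, ABHD5 (1.82), a co-activator of lipases, KLK6 (1.72), a kallikrein, and CSTA (1.66), the protease inhibitor cystatin A. PRSS8 (-2.21), which encodes the protease prostasin, ELF3 (-2.16) and EHF (-1.22), transcription factors of glandular as well as squamous epithelium, and PADI1 (-1.93), an enzyme that converts arginine to citrulline, were lower.

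**Figure D3:**
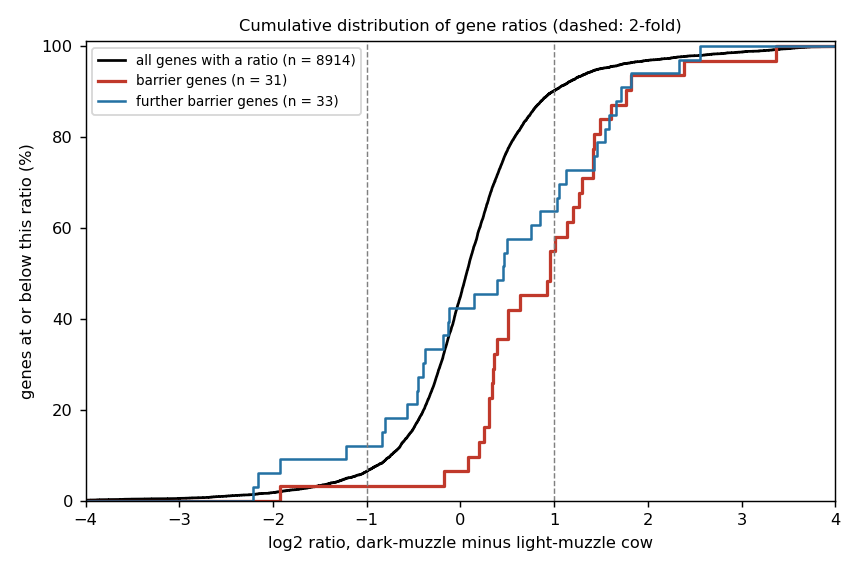
Share of genes (%) at or below each log2 ratio, dark-muzzle minus light-muzzle cow, for all 8914 genes with a ratio (black), the 31 barrier genes (red) and the 33 further barrier genes (blue), with dashed lines at 2-fold. The red curve lies to the right of the black one over most of its length, with a median of 0.96 against 0.065, while the blue curve lies above the black one at the lower dashed line and below it at the upper one.

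Markers of the epidermis did not move as one. The basal keratins KRT5 (-0.52) and KRT14 (-0.41), the hemidesmosome collagen COL17A1 (-0.81) and the laminin chain LAMB3 (-0.72) were somewhat lower in the dark muzzle, as was ITGA6 (-0.35). KRT15, another basal keratin, was higher, with a mean of 1.75 over probes between 0.79 and 3.06. KRT10, the keratin of suprabasal cells, read log2 levels of 6.92 and 8.49, a ratio of 1.57. KRT80, of the same list, had a ratio of -0.22. All of these were well above background in both cows, so the defining keratins of epidermis were present in both pieces of nose tissue. KRT4 (5.20) and KRT78 (1.39), keratins of lining epithelium such as that of the mouth and esophagus, were also higher.

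Markers of other tissues moved with the comparison. The median log2 ratio, 0.96 for the barrier genes, was 3.30 for the 2 measured markers of mucosal stratified epithelium, 3.03 for skeletal muscle and 1.48 for melanocytes, and was negative for serous glands (-3.19) and for simple and glandular epithelium (-1.92). All 13 measured markers of skeletal muscle were higher in the dark muzzle by 2-fold or more, from ACTA1 (2.24) to ACTN2 (3.68), and their summed signal, in units of the 75th percentile, was 721 in the light muzzle and 4339 in the dark muzzle. Of 9 markers of serous glands, 6 were lower in the dark muzzle by 2-fold or more and BPIFA1 (1.29) was higher, with a summed signal of 572 and 45.9 for the list. BPIFA1 was dim, with log2 levels of -5.17 and -3.89 from 1 probe. The 31 barrier genes had a summed signal of 855 and 1593, and all named genes of the array one of 86390 and 96576. None of the markers in the muscle, gland and epidermal lists was below background in both cows. Of 6 markers of melanocytes 4 were higher by 2-fold or more, of which TYRP1 was above background on the dark-muzzle array alone. The others, MITF (0.86) and DCT (-0.52), lay within 2-fold, with DCT lower in the dark muzzle. The summed signal of the melanocyte markers was 2.77 and 5.82. The part of these shifts between tissues in the ratios of the barrier genes was not tested, and with 1 cow per group muzzle color, animal and place of sampling cannot be told apart.

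**Figure D4:**
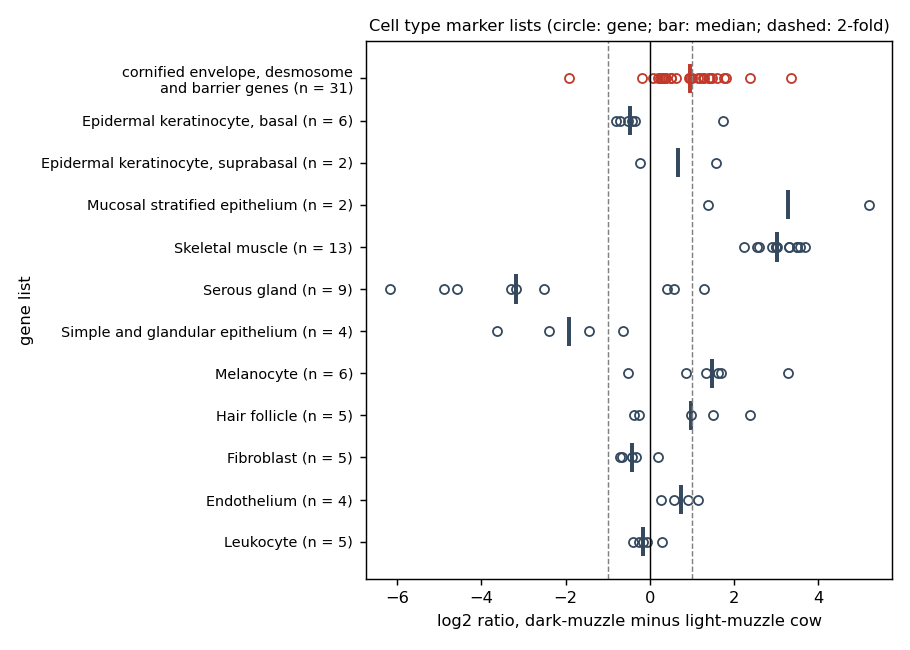
Log2 ratio of each gene, dark-muzzle minus light-muzzle cow, on the horizontal axis for the barrier genes and for 11 lists of cell type markers; circles are genes, vertical bars medians and dashed lines 2-fold. TYRP1, the rightmost melanocyte marker at 3.28, is a lower bound; the median is 0.96 for the barrier genes, 3.03 for skeletal muscle and -3.19 for serous gland.

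Of the remaining lists, those of fibroblasts (5 genes, median -0.42) and leukocytes (5 genes, median -0.15) held 0 genes past 2-fold. PECAM1 (1.14) was the only one of 4 endothelial markers past it, and the median there was 0.74. Of 5 keratins of the hair follicle, KRT25 (1.52) and KRT85 (2.39) were higher by 2-fold or more and the median was 0.99.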

How the data were processed

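Muzzle RNA was labelled with Cy3 and hybridised to Agilent bovine arrays by the authors, whose deposited files are the output of Agilent Feature Extraction 10.7.3.1. The deposited processed signal is an intensity from which that software took the background and a spatial trend. The array design was built on Btau_3.1. A further deposited file holds log2 values per probe. For 43628 of 43639 probes on each array these lay within 0.01 of the log2 signal after the shift described next, and they served only as an alternative. Samples were grouped by the tissue color in their labels.

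Signals were put on the log2 scale and shifted by the 75th percentile of the 43803 noncontrol spots, an intensity of 1144 on the light-muzzle and 1137 on the dark-muzzle array. Of these spots 78.8% and 81.9% were well above background. Controls and 13 outlier spots per array were dropped before repeated spots of a probe were averaged. Accessions of 20587 of 43639 probes were found in RefSeq's gene table for ARS-UCD2.0 and gave the symbols. No coordinate of that assembly is given, since the builds differ. The ratio of a gene was the mean over probes well above background on both arrays. A gene with no such probe took its largest lower bound, in which the array without signal was set to its detection limit, or to the probe's measured level if that was higher. No test was made.

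Every measured member was accounted for. Levels of 1 or more probes were given for each member past 2-fold and for some of the others, and the further barrier genes named were up to 5 past 2-fold in each direction. The members, gene lists and rules were chosen with earlier results of these data known. Alternatives were quantile and loess (span 0.3) normalization, a 50th percentile shift, no shift, normexp (offset 50, on the median pixel signal), other filters on dim or outlier spots, the deposited log2 table, the brightest or the median probe, and thresholds of 1.5-fold and 3-fold. Gene counting was tested on simulated data. Tools were R 4.3.3, limma 3.58.1, Python 3.11.15, numpy 2.4.6, pandas 2.3.3 and matplotlib 3.10.9.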

Additional observations from a re-analysis of the deposited data

How the results depend on the processing

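The number of barrier genes higher in the dark muzzle by 2-fold or more was 14 as reported and 13 or 14 under each of the 11 other normalizations, background corrections, filters and probe rules. At a threshold of 1.5-fold it was 18 and at 3-fold it was 5, and the shares of all genes at these 2 thresholds were not counted. Under the 11 settings, between 7.13% and 12.2% of all genes were higher by 2-fold or more. The number of barrier genes lower by 2-fold or more was 1 throughout, against 4.16% to 7.55% of all genes under the 11 settings. The median log2 ratio of 0.96 lay between 0.87 and 0.96 under the other settings, except with the brightest probe of each gene. There, where probes are no longer averaged, it was 0.77, and the median over all genes was 0.0084 against 0.065 as reported. The reason for these lower medians was not tested. Of the 31 genes, 29 kept their sign under all 11 settings, and ECM1 (-0.087) and GRHL1 (-0.13) turned negative with the brightest probe. Of the 15 genes past 2-fold, 12 stayed past it under all 11. Several of the 11 could change little or nothing here. All member probes were well above background in both cows, so the filters on dim probes left every member ratio unchanged. Keeping outlier spots did the same, and the deposited log2 table holds nearly the same shifted signal. The other percentile shift and no shift moved every ratio by a constant, to medians of 0.935 and 0.947. Agreement under these settings therefore adds little. With the brightest probe DMKN had a ratio of 0.65, TGM3 one of 0.79 and OVOL1 one of 1.15, past the threshold. The ratio of PKP2 was -1.36 under normexp background correction and -2.92 with its brighter probe. Quantile normalization lowered the ratios of bright genes such as PERP, from 0.30 to 0.065. An alternative that would have left out probes named by symbol alone was not run, because all probes were named by accession. No paired analysis was possible because each group holds 1 array and no test was made. Signal over background limits mainly the dim probes, such as those of OVOL1 and CERS3.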
